A study of Rattus norvegicus with 2 samples.

Results

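Matrix metalloproteinases and their inhibitors were followed here through 8 genes chosen by symbol, 8 of the 42172 genes counted in each library: the metalloproteinases Mmp8, Mmp9, Mmp12, Mmp14 and Mmp19 and the tissue inhibitors Timp1, Timp2 and Timp3. All 8 symbols were found once in the gene list of both libraries. Matrix metalloproteinases are zinc-dependent enzymes that are made as inactive proenzymes and cut collagen, elastin, fibronectin and other proteins outside the cell. Tissue inhibitors of metalloproteinases bind the active site of these enzymes and hold them in check, and TIMP3 differs from the other inhibitors in that it stays bound to the matrix. In the lung, neutrophils carry collagenase and gelatinase in granules, macrophages make the elastase MMP12, and stromal cells are among the sources of the inhibitors.

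The study compared lung cells of rats exposed to a gas explosion with those of unexposed control rats, kept free of specific pathogens. Lungs were cut up, digested with collagenase IV, papain and DNase I, freed of red and dead cells and run on a 10x Chromium 3′ kit, which counts unique molecular identifiers (UMIs), each standing for 1 captured RNA molecule. Each group was 1 library, so no difference below has a replicate check and no test between the groups was possible. The labels give neither strain, age, time after exposure nor number of animals per library. All intervals are 95% intervals for counting error only: exact Poisson for a level, exact conditional for a ratio and exact binomial (Clopper-Pearson) for a share.

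The explosion library held 12642 barcodes and 9017416 UMIs, and the control library held 21117 barcodes and 139486248 UMIs. After filtering, 11845 explosion cells with a median of 532 UMIs and 19231 control cells with a median of 4677 UMIs remained. The smallest barcode held 231 UMIs in the explosion library and 500 in the control library, and 5580 explosion cells lay under 500 UMIs. The libraries shared 85 barcodes, 0.672% of the explosion and 0.403% of the control barcodes. Levels are therefore given as UMIs of a gene per 1000000 UMIs of its class and library (CPM), and shares of cells at equal depth are given after thinning each cell of at least 500 UMIs to 500. Shallower cells, all of them in the explosion library, were left out of those shares, 143 of 426 fibroblast-like, 123 of 1028 mesothelial-like, 216 of 1986 macrophage-like and 703 of 771 B-like cells among them, so the explosion shares cover its deeper cells.

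Cells were clustered without the metalloproteinase, inhibitor and related protease genes and named from marker genes, and a class is called "like" a cell type on that ground alone. The neutrophil-like class (S100a8, S100a9, Retnlg) held 13 explosion and 306 control cells, 0.110% and 1.59% of kept cells, a share that the depth gap and the different lowest UMI counts could also set. The monocyte-like class held 3863 explosion and 1293 control cells, and the macrophage-like class 1986 explosion and 8832 control cells. The fibroblast-like class (Dcn, Col1a1, Mfap4) held 426 explosion and 107 control cells, and the mesothelial-like class (Msln, Upk3b, Lrrn4), lining cells of the pleura, 1028 explosion and 1190 control cells. Marco had 0 UMIs in macrophage-like cells of both libraries, and Ltf had 0 in neutrophil-like cells of both. Of 14 neutrophil markers, 8 were detected in the explosion and 13 in the control neutrophil-like cells. No cluster was named smooth muscle or pericyte, and their markers lay partly in the fibroblast-like class. Several classes were made of clusters that came almost wholly from 1 library. Of the macrophage-like cells, 1770 explosion cells and 20 control cells lay in a cluster led by Mrc1, Gpnmb and Lpl, while 15 and 25 explosion cells and 3448 and 5092 control cells lay in 2 clusters led by Fabp4, Cela1, Prodh2 and Il18. Among monocyte-like cells, a cluster led by Pou2f2, Mal and Nos2 held 2896 explosion and 23 control cells, one led by Mal, Cd300c2 and Treml4 held 2 and 951, and one led by Fcnb and Ccr2 held 965 and 319. A cluster of 1 library may be that library and not a cell type.

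The promoters of 5 of the 8 genes (Mmp8, Mmp12, Timp1, Timp2 and Timp3) matched RefSeq, build GRCr8, by symbol. The submitters' notes name other builds for the files, so no coordinate of the files is set beside these. Shown are the 250 bases before the start of Mmp8, the neutrophil collagenase, Mmp12, the macrophage elastase, and Timp1 and Timp3, the inhibitors that were lower and higher in explosion stromal cells. Capitals mark 3 motifs, searched on both strands, with overlapping matches joined. The TATA box was searched as TATAA. The AP-1 site was searched as TGANTCA. The GC box was searched as GGGCGG.
Mmp8: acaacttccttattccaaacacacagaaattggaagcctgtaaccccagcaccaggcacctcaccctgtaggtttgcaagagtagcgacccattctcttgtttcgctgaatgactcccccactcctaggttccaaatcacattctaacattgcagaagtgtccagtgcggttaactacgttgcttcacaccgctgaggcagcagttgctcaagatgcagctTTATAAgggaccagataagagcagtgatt
Mmp12: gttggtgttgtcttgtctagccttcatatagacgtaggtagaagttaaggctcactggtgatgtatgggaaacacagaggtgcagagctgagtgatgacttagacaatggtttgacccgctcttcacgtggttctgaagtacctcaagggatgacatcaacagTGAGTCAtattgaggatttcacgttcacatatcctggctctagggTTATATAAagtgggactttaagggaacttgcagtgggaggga
Timp1: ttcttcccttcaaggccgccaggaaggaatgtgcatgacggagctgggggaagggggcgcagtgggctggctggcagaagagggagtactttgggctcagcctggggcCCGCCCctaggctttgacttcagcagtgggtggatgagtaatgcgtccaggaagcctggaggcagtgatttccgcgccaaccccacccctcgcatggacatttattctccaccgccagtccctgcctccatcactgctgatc
Timp3: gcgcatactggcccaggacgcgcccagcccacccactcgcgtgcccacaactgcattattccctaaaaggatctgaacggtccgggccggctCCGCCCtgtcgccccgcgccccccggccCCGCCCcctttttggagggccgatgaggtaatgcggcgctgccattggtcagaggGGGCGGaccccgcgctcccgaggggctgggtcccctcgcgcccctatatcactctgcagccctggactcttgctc
They lie at chr8:13008640-13008889 and chr8:12866402-12866651 on the plus strand, and at chrX:3771123-3771372 and chr7:19459559-19459808 on the minus strand. Mmp8 and Mmp12 lie in the same run of metalloproteinase genes on chromosome 8, next to Mmp27, Mmp10, Mmp1, Mmp1b and Mmp3. Both held TATAA, Mmp8 at 29 and 28 and Mmp12 at 42 and 39 bases before the start, and Mmp12 also held an AP-1 match at 87. Of 33469 RefSeq promoters of the same length, 24.0% held TATAA and 6.34% the AP-1 letters. The 3 inhibitors held no TATAA, and each held the GC box, Timp1 at 142, Timp2 at 54 and Timp3 at 158, 130 and 75 bases before the start, as did 30.5% of all promoters. A match is a description of the letters and not a bound site.

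**Figure D1:**
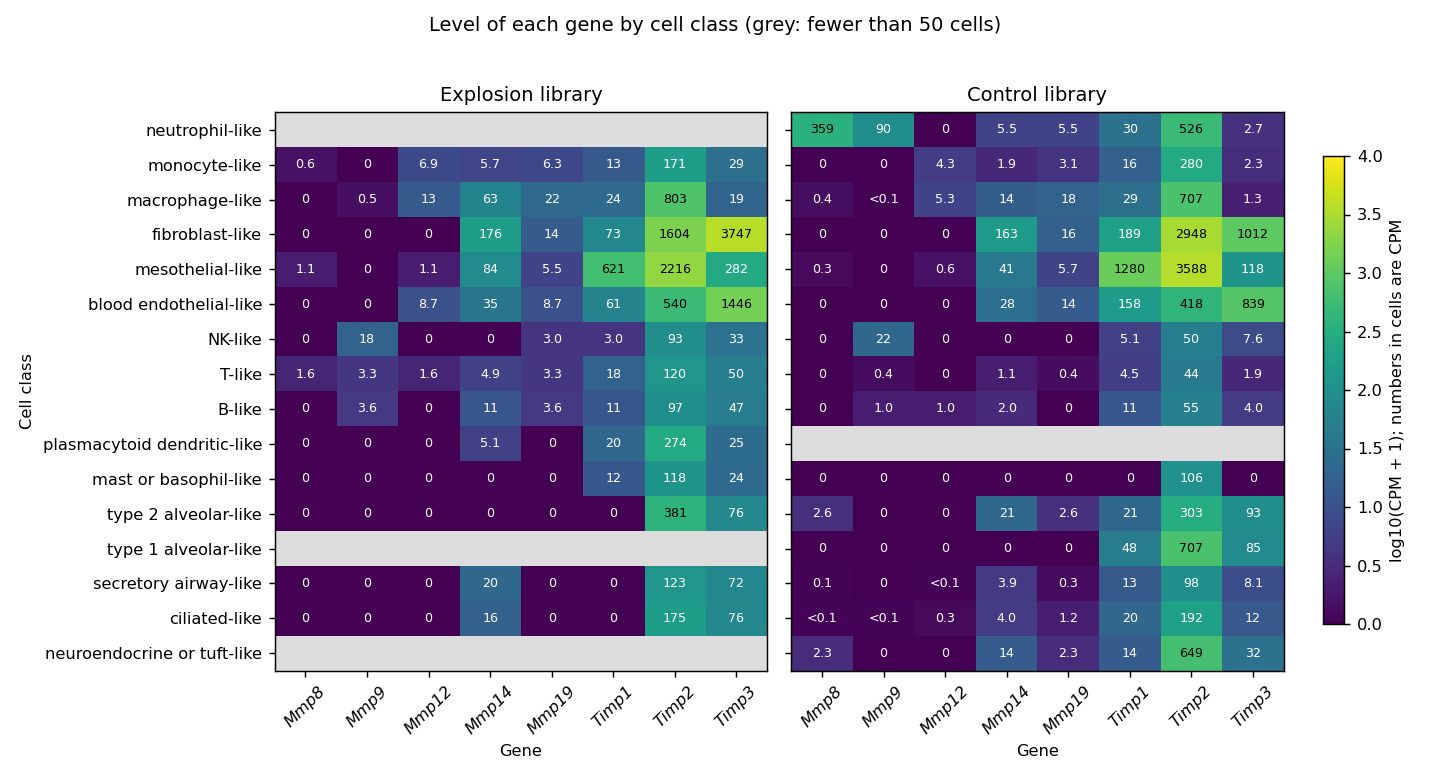
Level of each gene in CPM (colour, log10 of CPM + 1, numbers in the fields are CPM) in each named cell class, explosion library left and control library right; grey rows held fewer than 50 cells, and 2 unnamed clusters are left out. Among classes of at least 50 cells, Mmp8 and Mmp9 were highest in control neutrophil-like cells, Timp1 in mesothelial-like cells and Timp3 in fibroblast-like and blood endothelial-like cells of both libraries.

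In the control library both granule enzymes were highest in neutrophil-like cells, and the explosion library held too few such cells to compare. Mmp8, the neutrophil collagenase, had 1 UMI in the 13 explosion neutrophil-like cells and 131 UMIs (359 CPM) in 67 of the 306 control neutrophil-like cells. The control neutrophil-like cells were 1.59% of control cells and held 80.4% of that library's 163 Mmp8 UMIs (interval 73.4 to 86.2%). The whole explosion library held 5 Mmp8 UMIs, each in a different class or unnamed group. Control macrophage-like cells held 23 more Mmp8 UMIs, 0.417 CPM.

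Mmp9, gelatinase B, had 0 UMIs in explosion neutrophil-like cells, which allows up to 400 CPM, and 33 UMIs (90.4 CPM) in control neutrophil-like cells. The 13 explosion cells gave neither gene the depth needed to compare the libraries in this class. Of the 67 control cells with Mmp8, 12 also held Mmp9, against 6 of the 239 without it. The overlap that unrelated detection would give was 3.94 cells, and the cells with Mmp8 had a median of 851 UMIs, the others 762.

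In the control library Mmp9 had a second source in NK-like cells, cytotoxic lymphocytes marked by Gzma, Prf1 and Nkg7. Explosion NK-like cells held 6 Mmp9 UMIs (17.9 CPM) in 6 cells, and control NK-like cells held 17 UMIs (21.6 CPM) in 16 cells. The ratio was 0.829 with an interval of 0.268 to 2.2, so a difference was not detectable at this depth. Mmp8 had 0 UMIs in this class in both libraries, and the neutrophil markers summed to 137 CPM in explosion (6 of 14 detected) and 94.1 CPM in control (11 of 14), with Cxcr2, Ltf and Hcar2 at 0 in both. B-like cells, which should hold little of any of these enzymes, had 1 Mmp9 UMI in each library, 3.60 CPM in the explosion library and 0.998 CPM in the control library. The NK-like and B-like intervals overlapped in the explosion library but not in the control library. The NK-like source is therefore read from the control library alone.

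Mmp12, macrophage elastase, which cuts elastin, had its highest level in a small C1qa-led cluster of macrophage-like cells, marked by C1qa, C1qb, C1qc, Apoe, Cd163 and Lyve1. That cluster held 9 Mmp12 UMIs (95.7 CPM) in 5 of 176 explosion cells and 109 UMIs (273 CPM) in 39 of 124 control cells. Mmp12 was 2.85-fold lower in its explosion cells (interval 1.45 to 6.41), which had a median of 464 UMIs, the control cells 2425.5. The other macrophage-like clusters together had 19 UMIs (8.98 CPM) in explosion cells and 183 UMIs (3.34 CPM) in control cells, 2.69-fold higher in explosion (interval 1.58 to 4.32). One control cell held 84 of those 183 UMIs, and without it the control level was 1.81 CPM.

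Over the whole macrophage-like class Mmp12 had 28 UMIs (12.7 CPM) in the explosion library and 292 UMIs (5.29 CPM) in the control library, a ratio of 2.39 (interval 1.56 to 3.53). Relative to the median gene of the class the log2 ratio was 0.71 and not past 2-fold. The direction of the class sum was thus opposite to that of the cluster where the gene was highest. The C1qa-led cluster was 8.86% of explosion and 1.40% of control macrophage-like cells. Monocyte-like cells held 12 UMIs in the explosion library and 11 in the control library, of which 11 (16.3 CPM) and 9 (7.90 CPM) lay in the Fcnb-led cluster. Fibroblast-like cells held none in either library, which allows up to 10.4 CPM in explosion and 9.60 CPM in control cells.

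**Figure D2:**
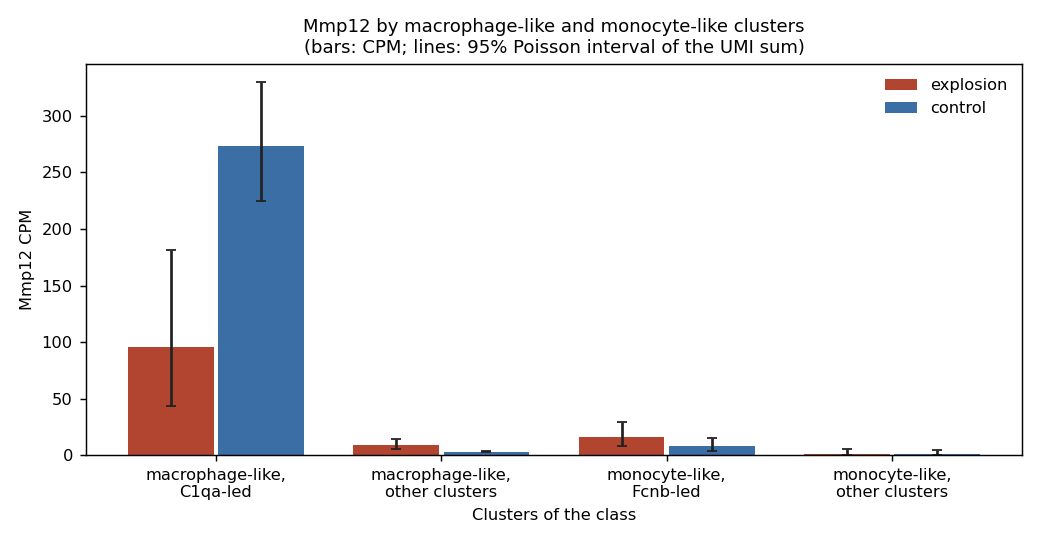
Mmp12 CPM (bars) with 95% Poisson intervals (lines) in the C1qa-led and the other macrophage-like clusters and in the Fcnb-led and the other monocyte-like clusters, explosion left of control. The C1qa-led cluster stood at 95.7 CPM in explosion and 273 CPM in control cells, above every other group shown.

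Mmp14, the membrane-bound MT1-MMP, which cuts collagen at the cell surface and activates pro-MMP2, was higher in explosion macrophage-like and mesothelial-like cells. Macrophage-like cells held 139 Mmp14 UMIs (62.9 CPM) in the explosion library and 792 UMIs (14.4 CPM) in the control library, 4.38-fold higher in explosion (interval 3.63 to 5.25). At equal depth 2.09% of explosion and 0.759% of control macrophage-like cells held a UMI, and the intervals, 1.48 to 2.87% and 0.588 to 0.962%, did not overlap. Without thinning the shares were 6.19% and 7.57%, and no order is read from them.

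Nearly all of the explosion Mmp14 UMIs of macrophage-like cells, 135 of 139, lay in the Mrc1- and Gpnmb-led cluster at 65.3 CPM. The 3 clusters that held most control macrophage-like cells stood at 18.2, 9.98 and 17.3 CPM. Fibroblast markers summed to 301 CPM in explosion macrophage-like cells (12 of 14 detected, Lum and Inmt at 0) and to 133 CPM in control ones (14 of 14), and mesothelial markers to 108 and 62.2 CPM (11 of 12 in each, Calb2 at 0). Their part in the Mmp14 difference was not tested. B-like cells held 3 Mmp14 UMIs in explosion (10.8 CPM) and 2 in control (2.00 CPM), below the macrophage-like levels. The B-like level was thus also higher in explosion, though on few UMIs. Over all kept cells Mmp14 stood at 38.4 CPM in explosion and 10.3 CPM in control.

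Mesothelial-like cells held 77 Mmp14 UMIs (84.5 CPM) in the explosion library and 143 UMIs (40.9 CPM) in the control library, a ratio of 2.07 (interval 1.55 to 2.75). The log2 ratio was 0.60 relative to the median gene of that class and 0.94 in CPM without Scgb1a1, Rn45s, mitochondrial and ribosomal genes, both short of 2-fold. By cluster, the Muc16-led one held 75 of the explosion UMIs (83.3 CPM) and 2 of the control UMIs (31.4 CPM), and the Msln-led one 102 control UMIs (37.3 CPM). Among classes of at least 50 cells in both libraries, fibroblast-like cells had the highest Mmp14 level, with 51 UMIs in each library, 176 CPM in explosion and 163 CPM in control (ratio 1.08, interval 0.718 to 1.62). Below them, the mesothelial-like and macrophage-like levels overlapped in the explosion library, while in the control library mesothelial-like cells lay above macrophage-like cells. The blood endothelial-like level, 34.9 CPM in explosion and 27.7 CPM in control, overlapped the mesothelial-like level in both libraries. In monocyte-like cells the 10 explosion and 5 control UMIs (5.74 and 1.93 CPM) lay within the intervals of the B-like levels, 2.23 to 31.6 CPM in explosion and 0.242 to 7.21 CPM in control, and no expression is read from them.

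Mmp19, an enzyme that cuts basement membrane proteins, was mainly a macrophage transcript, and its difference between the libraries was within counting error. Macrophage-like cells held 49 UMIs (22.2 CPM) in explosion and 966 UMIs (17.5 CPM) in control, 60.5% and 91.6% of all Mmp19 UMIs. The ratio was 1.27 with an interval of 0.93 to 1.69, and it turned to -0.21 on the log2 scale relative to the median gene of the class, which was itself 0.55 higher in explosion. The fibroblast-like level, 13.8 CPM in explosion and 16.0 CPM in control, overlapped the macrophage-like level in both libraries. Monocyte-like cells had 11 UMIs in explosion and 8 in control (ratio 2.04, interval 0.748 to 5.84), which is within counting error.

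**Figure D3:**
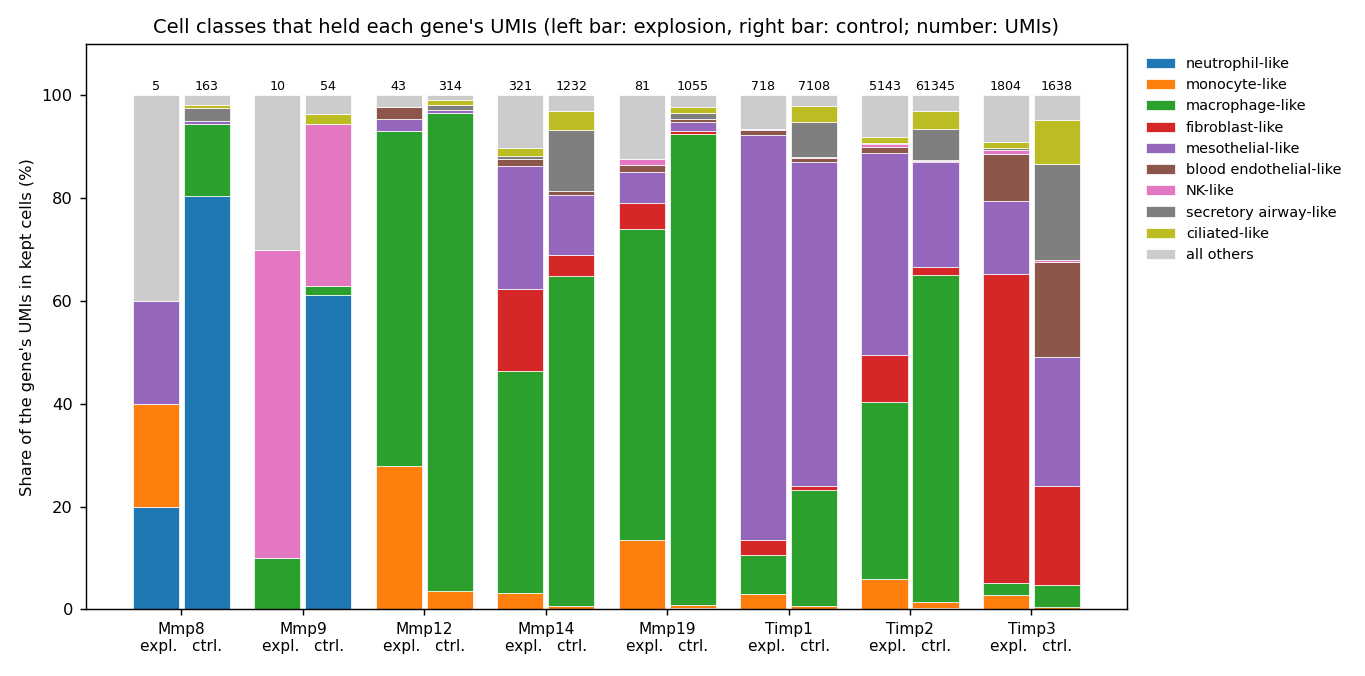
Share of each gene's UMIs (percent of the UMIs in kept cells, which are given above each bar) held by each cell class, left bar explosion and right bar control. Mmp8 came from neutrophil-like cells in control, Mmp12 and Mmp19 from macrophage-like cells in both libraries, Timp1 from mesothelial-like cells in both, and Timp3 mainly from fibroblast-like cells in explosion and from several classes in control.

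Timp1, the secreted inhibitor that also binds pro-MMP9, was lower in the explosion library in mesothelial-like, fibroblast-like and blood endothelial-like cells. The fall was not confined to these classes. Ciliated-like cells, also past 2-fold lower, held 0 UMIs in 291 explosion cells and 231 UMIs in 1048 control cells. The unnamed clusters, past 2-fold lower as well, held 27 UMIs in 769 explosion cells and 97 in 249 control cells. Mesothelial-like cells held 566 Timp1 UMIs (621 CPM) in the explosion library and 4482 UMIs (1280 CPM) in the control library, 2.06-fold lower in explosion (ratio 0.485, interval 0.443 to 0.529). These cells supplied 78.8% of the explosion and 63.1% of the control Timp1 UMIs while being 8.68% and 6.19% of cells. At equal depth 25.4% of explosion and 46.5% of control mesothelial-like cells held a UMI.

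The mesothelial-like cells of the 2 libraries lay in different clusters, 1017 explosion and 56 control cells in a Muc16-led one and 11 and 1045 in a Msln-led one. Within the Muc16-led cluster Timp1 had 562 UMIs (624 CPM) in explosion and 84 UMIs (1320 CPM) in control, a ratio of 0.473 (interval 0.375 to 0.602), as large as in the class. A further 89 control cells and no explosion cell lay in a Pla2g2a-led cluster. The log2 ratio of -1.04 fell short of 2-fold in 4 alternatives: -0.41 with called doublets kept, -0.91 with at most 10% mitochondrial UMIs, -0.93 with at least 500 UMIs per cell and -0.98 at finer clustering. Macrophage markers summed to 1495 CPM in explosion mesothelial-like cells (15 of 20 detected) and 3251 CPM in control ones (16 of 20), with Marco, Cd163 and Folr2 at 0 in both, Atp6v0d2 and Trem2 in explosion only and Stab1 in control only, and their part was not tested.

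Fibroblast-like cells held 21 Timp1 UMIs (72.6 CPM) in explosion and 59 UMIs (189 CPM) in control, 2.60-fold lower in explosion (interval 1.56 to 4.51). The log2 ratio of -1.38 became -0.46 with cells assigned one by one from their markers, -0.81 with doublets kept, -0.96 with at least 500 UMIs per cell and -0.99 after thinning, each short of 2-fold. Blood endothelial-like cells, marked by Vwf, Pecam1 and Cdh5, held 7 UMIs (61.0 CPM) in explosion and 57 UMIs (158 CPM) in control, 2.59-fold lower in explosion (interval 1.18 to 6.72). The fibroblast-like and endothelial-like levels overlapped in each library, far below the mesothelial-like one. Macrophage-like cells had 54 UMIs (24.4 CPM) in explosion and 1598 UMIs (29.0 CPM) in control, a ratio of 0.844 with an interval of 0.631 to 1.11.

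Timp2, which both inhibits MMP2 and takes part with MMP14 in activating it, had 5143 UMIs in the explosion and 61345 in the control library and was found in every class of at least 50 cells. In mesothelial-like cells it stood at 2216 CPM in explosion and 3588 CPM in control, 1.62-fold lower in explosion (interval 1.55 to 1.70). Fibroblast-like cells had 1604 CPM in explosion and 2948 CPM in control, 1.84-fold lower in explosion (interval 1.64 to 2.06), and monocyte-like cells 171 and 280 CPM, 1.64-fold lower (interval 1.43 to 1.88). None of these differences was past 2-fold. Relative to the median gene of each class they were -1.14, -1.28 and -1.16 on the log2 scale, past 2-fold in all 3 classes.

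Macrophage-like cells had 803 CPM of Timp2 in explosion and 707 CPM in control (ratio 1.14, interval 1.08 to 1.19), and relative to the median gene of the class this turned to -0.37 on the log2 scale. At equal depth 31.9% of explosion and 29.1% of control macrophage-like cells held a Timp2 UMI, against 4.41% and 2.68% of B-like cells. Macrophage-like cells supplied 34.5% of the explosion and 63.6% of the control Timp2 UMIs, being 16.8% and 45.9% of cells. From the highest class down, the order was mesothelial-like, fibroblast-like, macrophage-like in both libraries, with no overlap between these neighbours. In the control library the type 1 alveolar-like level, 707 CPM, overlapped the macrophage-like one. So did that of the 80 control neuroendocrine or tuft-like cells, which held 288 Timp2 UMIs.

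Timp3, the inhibitor that stays in the matrix and also blocks ADAM17 and other ADAM and ADAMTS proteases, was higher in explosion stromal cells. Fibroblast-like cells held 1084 Timp3 UMIs (3747 CPM) in the explosion library and 316 UMIs (1012 CPM) in the control library, 3.70-fold higher in explosion (interval 3.26 to 4.21). The 10 highest of the 107 control cells held 43.7% of the control UMIs, and the 10 highest of the 426 explosion cells 10.4%. This interval does not cover such spread between cells. At equal depth 73.9% of explosion and 33.6% of control fibroblast-like cells held a UMI, and the intervals, 68.3 to 78.9% and 24.8 to 43.4%, did not overlap. The log2 ratio, 1.89, lay between 1.49 and 2.43 in the alternatives that could change it, past 2-fold in each. Among them, a finer clustering, which named fewer cells fibroblast-like, gave 373 UMIs in explosion and 251 in control, a log2 ratio of 1.58.

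The fibroblast-like cells of the 2 libraries differed in makeup. Pi16, a marker of adventitial fibroblasts, stood at 2060 CPM in explosion and 11026 CPM in control, and Mfap4 at 2185 and 1034 CPM. Among the other fibroblast markers, Dcn stood at 4923 CPM in explosion and 12722 CPM in control. Npnt stood at 404 CPM (117 UMIs) in explosion and 16.0 CPM (5 UMIs) in control. Smooth muscle markers, 8 of 8 detected in both libraries, summed to 947 CPM in explosion and 1934 CPM in control, and pericyte markers to 283 CPM (6 of 8, Notch3 and Rgs5 at 0) and 362 CPM (7 of 8, Rgs5 at 0). The blood endothelial markers summed to 207 CPM (9 of 13) and 269 CPM (6 of 13). Mesothelial markers summed to 360 CPM in explosion and 144 CPM in control (10 of 12 in each, Calb2 and Bnc1 at 0). The part of these differences in that of Timp3 was not tested.

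Mesothelial-like cells held 257 Timp3 UMIs (282 CPM) in explosion and 412 UMIs (118 CPM) in control, 2.39-fold higher in explosion (interval 2.04 to 2.81). Relative to the median gene of the class the log2 ratio was 0.81 and after thinning 0.71, both short of 2-fold. In the Muc16-led cluster alone the log2 ratio was 2.14, on 249 explosion UMIs but only 4 control UMIs. Fibroblast markers summed to 16542 CPM in explosion mesothelial-like cells (13 of 14, Tcf21 at 0) and 9532 CPM in control ones (12 of 14, Lum and Inmt at 0), and their part was not tested. Blood endothelial-like cells had 166 UMIs (1446 CPM) in explosion and 303 UMIs (839 CPM) in control, a ratio of 1.72 (interval 1.42 to 2.09). The 10 highest of the 153 control cells held 59.4% of the control UMIs, 34 of them in 1 cell. In explosion the 10 highest of 229 cells held 27.7%. The interval does not cover this spread between cells. Fibroblast markers summed to 1882 CPM in the explosion endothelial-like cells (10 of 14, with Lum, Pdgfra, Inmt and Tcf21 at 0) and 872 CPM in the control ones (9 of 14, with the same 4 and Mfap4 at 0), and their part was not tested. In the explosion library the fibroblast-like, endothelial-like and mesothelial-like levels were separate in that order. In the control library the fibroblast-like and endothelial-like levels overlapped.

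The library-wide Timp3 level was 216 CPM in explosion and 13.7 CPM in control. Fibroblast-like cells were 3.60% of explosion and 0.556% of control cells and held 60.1% and 19.3% of all Timp3 UMIs.

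Timp3 in monocyte-like and macrophage-like cells did not exceed its level in B-like cells. Monocyte-like cells had 51 Timp3 UMIs (29.3 CPM) in explosion and 6 (2.32 CPM) in control, and macrophage-like cells had 41 (18.6 CPM) and 70 (1.27 CPM). B-like cells, with a median of 320 UMIs in explosion and 1158.5 in control, stood as high or higher, at 46.9 CPM in explosion and 3.99 CPM in control. Fibroblast markers in B-like cells summed to 865 CPM in explosion and 70.9 CPM in control. The 12.6-fold difference in monocyte-like cells is therefore counted below but not read as expression.

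**Figure D4:**
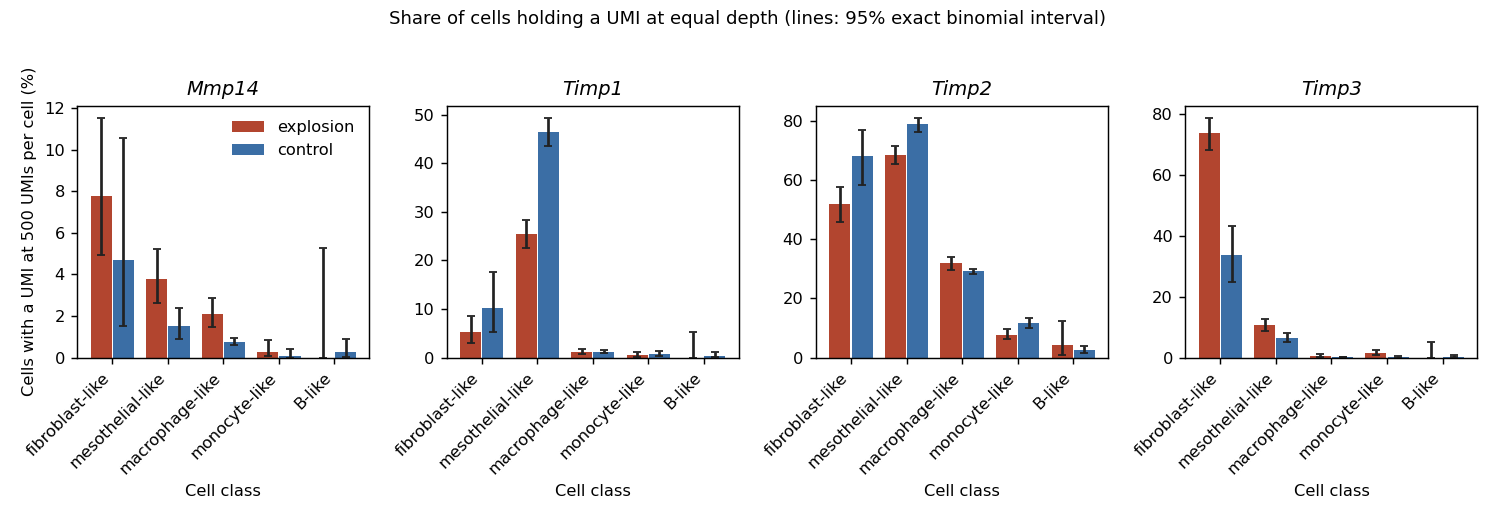
Share of cells with at least 1 UMI of Mmp14, Timp1, Timp2 and Timp3 after thinning to 500 UMIs per cell, explosion left of control, with 95% exact binomial intervals; only 68 explosion B-like cells were deep enough. Timp3 was found in 73.9% of explosion and 33.6% of control fibroblast-like cells, and Timp1 in 25.4% and 46.5% of mesothelial-like cells.

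Counted together, a gene was taken as measured in a class when at least 5 of its UMIs would fall in the library with the smaller class total at equal CPM, and as past 2-fold when its CPM ratio was at least 2 in either direction. In macrophage-like cells 5 of the 8 were measured, 2 were higher in explosion (Mmp14 and Mmp12) and none was lower, where 30.1% of 10636 measured genes were higher, 8.67% lower and 38.8% either. In monocyte-like cells 6 were measured and 3 were higher (Timp3, Mmp14 and Mmp19), where 27.4% of 11408 genes were higher, 10.7% lower and 38.1% either. Of those 3, Timp3 and Mmp14 did not exceed the B-like level and the Mmp19 interval included 1.

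In fibroblast-like cells 4 were measured, of which Timp3 was higher and Timp1 lower, where 29.1% of 7818 genes were higher, 14.4% lower and 43.5% either. In mesothelial-like cells 5 were measured, of which Timp3 and Mmp14 were higher and Timp1 lower, where 28.3% of 10808 genes were higher, 12.6% lower and 40.9% either. None of the 8 was measured in neutrophil-like cells, where 4.32% of 185 genes were higher, 44.9% lower and 49.2% either. In blood endothelial-like cells 3 were measured and Timp1 was lower, where 22.6% of 4491 genes were higher and 21.8% lower. The median log2 ratio of the measured members was 0.34 in macrophage-like, 0.86 in monocyte-like, -0.38 in fibroblast-like and -0.06 in mesothelial-like cells, beside 0.55, 0.45, 0.40 and 0.45 for all measured genes. With so few members measured, none of these counts is read as standing apart from the background, and the results rest on the single genes.

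**Figure D5:**
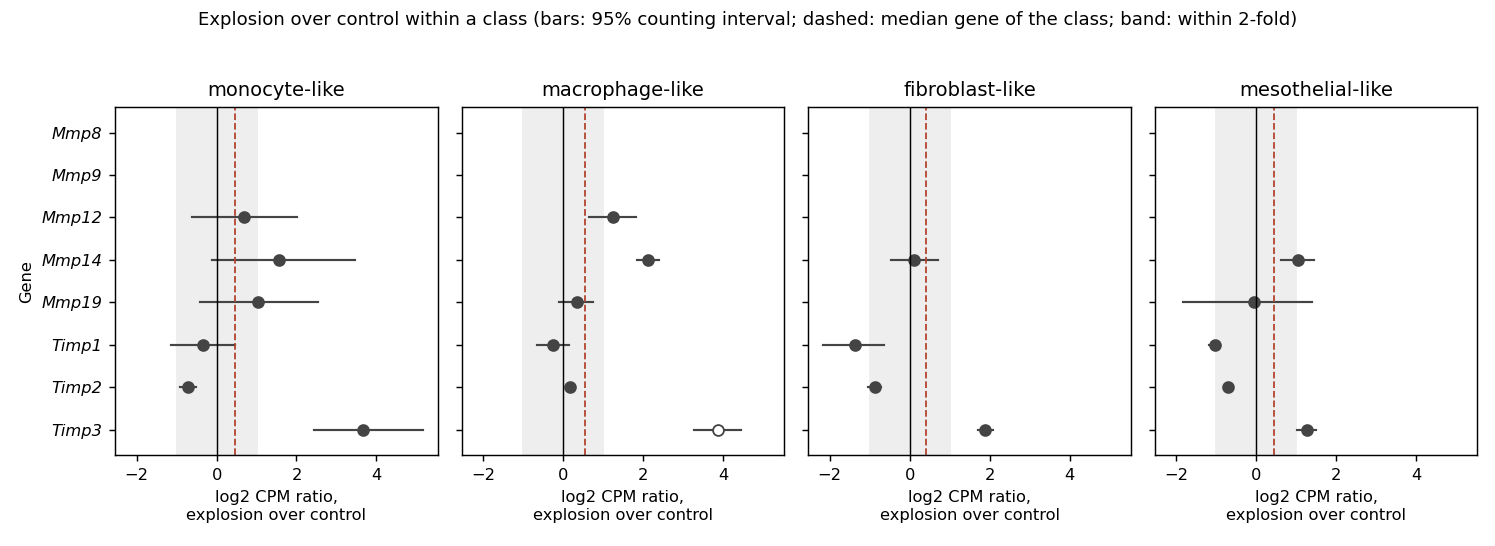
Log2 CPM ratio of explosion over control for each gene with at least 10 UMIs and both libraries above 0, in 4 cell classes, with 95% counting intervals; filled points are measured genes and the open point is not, the grey band is within 2-fold, and the dashed line is the median gene of the class. Timp3 and Mmp14 lie to the right of the band in mesothelial-like cells and Timp1 to its left, and Mmp14 lies farthest right of the measured genes in macrophage-like cells.

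Other genes of the matrix-degrading system were given from fixed lists. Of 17 other family members, few were measured in any class. Mmp2, gelatinase A, the usual substrate of MMP14 activation, was a fibroblast transcript in both libraries, with 87.6% of its explosion and 85.9% of its control UMIs in fibroblast-like cells, at 1047 CPM in explosion and 1018 CPM in control (ratio 1.03, interval 0.876 to 1.21). In fibroblast-like cells 4 family members were measured, none was higher and Mmp17 and Mmp23 were lower, each on few UMIs. Beside these, 29.1% of all measured genes were higher there and 14.4% lower. The Mmp17 ratio was within counting error (interval 0.108 to 1.72). In mesothelial-like cells Mmp11 was higher and Mmp23 and Mmp28 were lower among 5 measured, beside 28.3% and 12.6% of all genes. The ratios of Mmp23 (interval 0.102 to 1.09) and Mmp28 (interval 0.148 to 1.22) there were within counting error. In monocyte-like cells Mmp25 was higher and Mmp28 lower among 3, beside 27.4% and 10.7% of all genes. Both ratios were within counting error (intervals 0.924 to 11.1 and 0.0672 to 1.37). No family member of this list was measured in macrophage-like cells. Mmp1, Mmp1b, Mmp3, Mmp10 and Mmp21 had 0 UMIs in the kept cells of both libraries and were not detectable at this depth.

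Among 12 activators, inhibitors and binding partners, 7 were measured in macrophage-like cells, 4 were higher in explosion and none was lower, beside 30.1% of all measured genes higher. Among those higher was Plau, urokinase, which activates plasminogen, at 42.1 CPM in explosion and 12.0 CPM in control (ratio 3.50, interval 2.79 to 4.36). At the other end Plaur, the urokinase receptor, had a ratio of 1.16 and Bsg, basigin, which induces metalloproteinases, 0.681. In monocyte-like cells 6 of 9 were higher, beside 27.4% of all genes. In fibroblast-like cells 3 of 8 were higher, beside 29.1% of all genes, among them Reck, a membrane-anchored inhibitor of metalloproteinases, at 249 CPM in explosion and 92.8 CPM in control (ratio 2.68, interval 1.72 to 4.28). Reck was also higher in mesothelial-like cells, 43.9 against 15.1 CPM (ratio 2.90, interval 1.87 to 4.45), where 3 of 8 were higher, beside 28.3% of all genes, and Bsg was 2.10-fold lower.

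Among 21 other matrix-degrading proteases and their inhibitors, 12 were measured in macrophage-like cells and 5 were higher in explosion, beside 30.1% of all genes. The highest were the membrane proteases Adam8, 22.6 CPM in explosion and 3.90 CPM in control (ratio 5.81, interval 4.18 to 7.93), and Adam15, 27.6 and 6.53 CPM (ratio 4.23, interval 3.17 to 5.56). The lowest were Cst3, cystatin C, at a ratio of 1.03 and the lysosomal protease Ctss at 0.747. In mesothelial-like cells 4 of 15 were higher and 2 lower, beside 28.3% and 12.6% of all genes, with Adamts1 at 99.8 CPM in explosion and 12.9 CPM in control (ratio 7.76, interval 5.37 to 11.4) at one end and Ctss, 3.37-fold lower, at the other. In fibroblast-like cells 4 of 14 were higher and 2 lower, beside 29.1% and 14.4% of all genes. At one end were the protease inhibitor Slpi, with 20 UMIs in explosion and 1 in control (ratio 21.6, interval 3.45 to 895), and Adamts9, with 10 and 1 (ratio 10.8, interval 1.54 to 469), and at the other Cst3 and Ctsl, 2.49-fold and 2.81-fold lower.

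The 10 matrix substrates were counted by class in the same way. In fibroblast-like cells only Col4a2 of the 10 measured was past 2-fold (ratio 2.16, interval 1.28 to 3.73), beside 43.5% of all genes either way. Col1a2 stood there at 8006 CPM in explosion and 8074 CPM in control. In macrophage-like cells all 5 measured were higher in explosion, Col1a1 at 45.7 and 4.15 CPM, beside 30.1% of all genes. In B-like cells all 4 measured were higher too, where 26.1% of 6705 genes were. The median log2 ratio of the list was 2.40 in macrophage-like and 3.72 in B-like cells. In mesothelial-like cells 1 of 8 was higher and 1 lower, beside 28.3% and 12.6% of all genes. Lamc1, a laminin chain, stood at 239 CPM in explosion and 100.0 CPM in control (ratio 2.39, interval 2.01 to 2.84). Eln, elastin, the substrate of MMP12, was 2.46-fold lower in explosion mesothelial-like cells, at 537 CPM against 1322 CPM in control (interval 2.24 to 2.71).

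The genes whose pattern was most like that of each member were found over 28 sums, 1 for each library and class of at least 50 cells, among 13135 genes. Pearson's r is a description, since the sums share libraries and depth. Mmp8 was most like LOC120095659 (r = 0.927) and S100a8 (0.885), Mmp12 like Myo7a (0.791) and Mmp19 like Hspa12b (0.883) and Hgf (0.860). Abca9 (0.833) and Adamtsl4 (0.830) were among the 3 genes most like Mmp14. Timp1 was most like Ptgis (0.850), Timp2 like Tmem159 (0.855) and Timp3 like Serpinh1 (0.923), a collagen chaperone, Kank2 (0.909) and Grb10 (0.902). Mmp9 had fewer than 100 UMIs and was not compared.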

How the data were processed

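10x libraries of dissociated rat lung were used, 1 per group. The deposited values are unnormalized counts of UMIs for each gene in each barcode, written by cellranger 7.1.0 per the file headers. The submitters' processing notes list Cell Ranger 6.1.1 and bcl2fastq 2.20, and as builds rn6 and mRatBN7.2, with no role given; the annotation, the strand setting and any filter before deposit are not given in the sources used here.

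Barcodes with at least 200 genes and at most 25% mitochondrial UMIs were kept, 12442 explosion and 21084 control cells. Doublets were called per library with Scrublet in scanpy 1.11.5 and removed, 597 (4.80%) in explosion and 1853 (8.79%) in control. Counts scaled to 10000 per cell and log-transformed, 2000 variable genes, 30 principal components, 15 neighbours and Leiden clustering at resolution 1 gave 30 clusters. The members and the listed proteases were left out of the variable genes and markers. A cluster was named when at least 3 of a cell type's markers were detected in it and no other type had more markers among its 10 leading genes. Detected here meant at least 2-fold above the clusters of other types and found in at least 5% of cells. A cluster with at least 3 cycling genes among those 10 stayed unnamed, as did a shallow one with no own marker among them. In all, 2 clusters stayed unnamed. Raw UMIs were summed per library and class and given as CPM; no pseudocount was used for ratios. Intervals came from scipy 1.17.1 and cover counting error only, since reads of 1 library are no replicates. A count of 0 was taken to allow 3 UMIs. The 2-fold rule and the ratio interval were tested on Poisson counts simulated from macrophage-like cells. The other steps were not tested in this way.

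The 8 members are all described. Of each list of other pathway genes, the 2 with the highest and the 2 with the lowest ratio among those measured could be named, and the 3 genes most like each member by Pearson's r of log CPM with a pseudocount of 1. Some genes that this rule names are not reported here. Mmp1 and Mmp1b were added after their values were seen. The members and lists were chosen with earlier results of these data known. Timp1, Timp2 and Timp3 overlap Syn1, Cep295nl and Syn3 in RefSeq GRCr8, so reads of the overlapping gene could be counted with them if strand was not used; Syn1 had 28 UMIs in explosion and 297 in control, and Syn3 had 35 and 75. Alternatives were another assignment of cells, clustering with the members, resolution 2, at least 500 UMIs per cell, at most 10% mitochondrial UMIs, doublets kept, CPM without the most variable RNA classes, ratios over the class median, thinning to 500 UMIs, subtraction of free RNA, at least 2 UMIs expected, and unnamed clusters added to their closest class.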

Additional observations from a re-analysis of the deposited data

How the results depend on the processing

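Of 53 recomputed counts of members past 2-fold, 43 stayed within 1.5 times the value reported and 10 did not. Only totals were compared, so a count that stayed could still change in direction or in its genes. Relative to the class median gene, the mesothelial-like count went from 2 higher and 1 lower to 0 higher and 2 lower. With doublets kept, the monocyte-like count went from 3 higher and 0 lower to 1 higher and 1 lower. In monocyte-like cells the count of 3 became 1 with cells assigned one by one from markers, 0 of 2 measured with at least 500 UMIs per cell, and 1 after thinning to 500 UMIs. In fibroblast-like cells the count of 2 became 1 under those same 3 settings and with doublets kept, each time without Timp1. In macrophage-like cells the count of 2 became 1 relative to the class median gene, without Mmp12, and 1 in the C1qa-led cluster alone. In neutrophil-like cells no member was measured, and with at least 2 UMIs expected 1 of 2 was past 2-fold, lower in explosion. Of 240 recomputed log2 ratios, 202 stayed within the counting interval of the value reported, 36 did not, and 2 that were past 2-fold as reported changed sign. Those 2 were Mmp19 in monocyte-like cells, 1.03 as reported and -0.26 with doublets kept, and Mmp12 in macrophage-like cells, 1.26 as reported and -1.51 in the C1qa-led cluster alone. A further 9 changed sign among ratios that were under 2-fold as reported, such as Mmp12 in monocyte-like cells, 0.70 as reported and -0.46 with cells assigned one by one, and Timp1 there, -0.33 as reported and 0.47 with at least 500 UMIs per cell. The cause was not tested. Mmp14 in macrophage-like cells stayed past 2-fold, between 1.52 and 2.16 on the log2 scale. Requiring 2 in place of 5 expected UMIs cannot change a ratio. Adding the unnamed clusters could not change one either, since their closest classes were secretory airway-like and T-like. The 20 ratios of each of these settings are among the 202 that stayed. The counts with unnamed clusters added are among the 43. The settings that keep only 1 cluster of a class were chosen after seeing the data. No paired analysis was possible because each group is 1 library, and none can be left out. The explosion library, with a median of 532 UMIs per kept cell, sets the precision, and members with few UMIs there (Mmp8, Mmp9, Mmp12 and Mmp19) could not be compared closely.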

Other observations

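Timp4, an inhibitor outside the 8 members, was mainly an airway transcript in the control library, where 370 of its 597 UMIs (62.0%) lay in secretory airway-like cells, and the explosion library held 19 UMIs in all. Mmp15, a membrane-type enzyme, had 1329 of its 1980 control UMIs (67.1%) in the same class, and 102 of its 191 explosion UMIs (53.4%) lay in the 2 unnamed clusters, one of which was led by airway and alveolar genes such as Sftpb and Cyp2f4. Secretory airway-like cells were 84 in the explosion library and 2913 in the control library, and neither gene is compared between them. Mmp27, in the same chromosomal run as Mmp8, had 0 UMIs in explosion and 9 in control, 7 of them in fibroblast-like cells.

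Among mesothelial-like cells the cells with Timp1 also held Timp3 more often than the rest in both libraries, 22.2% against 17.8% in explosion and 23.8% against 11.4% in control. The cells with Timp1 were also deeper, with a median of 878.5 against 752.5 UMIs in explosion and 2456.5 against 973.5 UMIs in control, and the part of depth in this was not tested.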
